A study of Mus musculus with 18 samples.

Results

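The 7 loci described here are those of Csf1r and of 6 transcription factor genes of the macrophage lineage, namely Spi1, Cebpa, Cebpb, Cebpd, Maf and Runx1. Their members are accessible regions, the ATAC-seq peaks that overlapped a gene body extended by 25 kb on both sides, in the mm9 build of the mouse genome with the GENCODE M1 annotation. Of the 194284 peaks of the series, 189 met this rule. Runx1, the longest gene, held 83 of them, Csf1r 25, Cebpa 23, Spi1 16, Cebpb 15, Maf 15 and Cebpd 12. The authors classed 26 of the 189 as promoter and 163 as distal, so 13.8% were promoter peaks against 18.9% of all peaks. All 189 passed the filter on low counts and were tested. The members and the gene lists were chosen with earlier results of these data known.

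Bone marrow-derived macrophages (BMDMs) from 3 Il10-/- male mice on a C57BL/6J background, 12 weeks old, were grown for 6 days with 10% L929 conditioned medium, a source of the CSF1R ligand. Every group lacks Il10, controls included, and the cells grew as cultures of macrophages matured outside the animal. The 6 groups were unstimulated, (+)-JQ1 (500 nM), IL-10 (10 ng/mL), LPS (50 ng/mL), LPS + (+)-JQ1 and LPS + IL-10, with 3 libraries each. Treatment ran for 12 h, LPS or PBS was then added for 4 h, and cells were collected at 16 h. LPS is the bacterial ligand of TLR4, (+)-JQ1 displaces the BET bromodomain proteins from acetylated chromatin, and IL-10 is an anti-inflammatory cytokine that signals through STAT3. The labels call the cells without (+)-JQ1 or IL-10 untreated, whereas the methods also name a vehicle control, so an effect of the (+)-JQ1 vehicle cannot be told apart from that of (+)-JQ1. Wild type macrophages and the inactive enantiomer of JQ1 were not analysed here.

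PU.1, the product of Spi1, is the ETS factor that opens much of the macrophage enhancer repertoire, and its own gene carries an upstream regulatory element bound by PU.1 and RUNX1. C/EBP-alpha acts with PU.1 in early myeloid commitment, whereas C/EBP-beta and C/EBP-delta are the family members associated with inflammatory and emergency responses. RUNX1 is the core-binding factor of definitive hematopoiesis, transcribed from a distal and a proximal promoter. CSF1R is the receptor for the growth factor that keeps macrophages alive, and an intronic element near its second exon is known to hold PU.1, C/EBP and RUNX1. c-MAF is a bZIP factor linked to the mature, IL-10-producing macrophage state.

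Each peak is named by the distance of its ends from the reference start of the gene, counted in the direction of transcription, so that Spi1 +24.64 to +30.04 kb lies downstream of the Spi1 start, and coordinates are those of the files. The sequences below come from the peaks that the results turn on and from 1 promoter, and were read from the plus strand of mm9. They were picked after the values were seen, and capitals mark matches to the letters searched for, which were GAGGAAGT for PU.1, TTGCNNAA for C/EBP, TGANTCA for AP-1, GAAANNGAA for an interferon element, GGGANTTTC for kappaB, TGTGGTT for Runx and TTCNNNGAA for STAT, on either strand. The STAT letters were added after the values were seen. The lines cover chr2:90921079-90921198, chr2:90925054-90925173 and chr2:90963282-90963401 for Spi1, chr7:35883691-35883930 for Cebpa, chr2:167514209-167514368 and chr2:167522065-167522184 for Cebpb, chr8:118222240-118222359 for Maf, and chr16:92801805-92801964 for Runx1. 
Spi1 -16.07 to -14.69 kb: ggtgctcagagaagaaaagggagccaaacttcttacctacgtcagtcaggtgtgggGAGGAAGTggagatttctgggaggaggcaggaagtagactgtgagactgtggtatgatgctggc
Spi1 -11.95 to -10.20 kb: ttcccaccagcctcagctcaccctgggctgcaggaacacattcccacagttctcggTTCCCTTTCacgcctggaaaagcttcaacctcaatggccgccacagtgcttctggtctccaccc
Spi1 +24.64 to +30.04 kb: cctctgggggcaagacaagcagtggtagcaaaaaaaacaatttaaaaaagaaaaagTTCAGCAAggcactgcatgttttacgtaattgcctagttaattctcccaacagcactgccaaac
Cebpa -20.77 to -19.90 kb: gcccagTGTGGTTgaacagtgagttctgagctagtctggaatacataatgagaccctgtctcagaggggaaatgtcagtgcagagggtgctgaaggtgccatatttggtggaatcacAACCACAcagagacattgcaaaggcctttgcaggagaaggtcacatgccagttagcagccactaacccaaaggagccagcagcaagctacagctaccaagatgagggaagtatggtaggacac
Cebpb -0.54 to +0.28 kb: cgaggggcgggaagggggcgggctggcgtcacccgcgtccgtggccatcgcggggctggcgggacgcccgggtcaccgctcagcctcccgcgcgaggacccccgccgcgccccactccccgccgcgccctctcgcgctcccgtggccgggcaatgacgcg
Cebpb +5.36 to +7.93 kb: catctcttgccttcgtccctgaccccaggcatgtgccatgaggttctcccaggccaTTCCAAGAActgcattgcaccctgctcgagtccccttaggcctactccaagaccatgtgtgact
Maf +8.33 to +9.98 kb: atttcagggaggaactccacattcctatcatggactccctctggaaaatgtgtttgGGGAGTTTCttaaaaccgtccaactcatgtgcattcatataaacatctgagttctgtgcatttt
Runx1 +23.95 to +24.90 kb: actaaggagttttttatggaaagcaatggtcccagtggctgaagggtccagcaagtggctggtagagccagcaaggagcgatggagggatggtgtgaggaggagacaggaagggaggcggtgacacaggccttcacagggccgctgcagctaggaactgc

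In this order the capitals mark a PU.1 match, an interferon element, a C/EBP match, a pair of Runx matches, none at the Cebpb start, a STAT match, a kappaB match and none in the middle of the Runx1 intronic peak. Each line with a match is centred on the match of that kind nearest the centre of its whole peak. The Cebpa line also holds a Runx match further from the centre. Matches of other kinds elsewhere in these peaks are not listed. Of the 7 printed matches 1, the interferon element of Spi1 -11.95 to -10.20 kb, lies within the middle 300 bases of its peak. In that middle window members held the letters about as often as all peaks or less often. PU.1 letters were in 1.6% of the 189 members and in 4.6% of all peaks, C/EBP letters in 10.1% and 12.5%, AP-1 letters in 12.7% and 12.1%, interferon element letters in 7.9% and 10.1%, kappaB letters in 1.6% and 1.1%, Runx letters in 5.8% and 8.4%, and STAT letters in 6.3% and 8.7%. Over whole peaks the shares were higher in members for all 7, at 14.8% and 12.7% for PU.1, 47.6% and 39.1% for C/EBP, 43.4% and 34.8% for AP-1, 38.1% and 33.6% for the interferon element, 7.4% and 4.8% for kappaB, 32.3% and 28.2% for Runx, and 37.6% and 31.1% for STAT. Members were also wider, with a median of 1239 bases against 956. A match is a description of the letters and not a measured binding site.

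Libraries held between 12020526 and 25908198 counts in peaks. Values are CPM after TMM scaling, that is, counts in a peak relative to the depth of its library, means are given ± SD over 3 libraries, and a peak was called when the FDR of edgeR's quasi-likelihood test was under 0.05 and the log2 fold change above 0.5 in size. The unstimulated libraries stood apart in their scaling, with TMM factors of 1.038 to 1.243 against 0.8964 to 1.049 elsewhere, and unstimulated replicate 1 was the extreme one, with 40.8% of its counts in promoter peaks against 42.4 to 51.1% in the other 17 libraries. Across the genome, strong peaks were low and weak peaks high in unstimulated libraries. Of the 10522 peaks between 20 and 50 CPM, the median log2 fold change was 0.38 for LPS, 0.60 for (+)-JQ1 and 0.41 for IL-10 against unstimulated, and of the 52172 peaks between 1 and 2 CPM it was -0.15, -0.20 and -0.17. With total counts as scaling, the median of all peaks shifted to -0.26 for LPS, -0.37 for (+)-JQ1 and -0.26 for IL-10 against unstimulated, from -0.03, -0.09 and -0.05. By the labels, replicate 1 ran on lane 5 and replicate 3 on lane 6, whereas the replicate 2 libraries given LPS ran on lane 6 and the others of replicate 2 on lane 5. The part of this in any result against unstimulated was not tested, and such results are read beside these medians. Leaving out replicate 2 of every group, which leaves 2 libraries a group, ended 53 of the 88 calls at 39 named peaks, and total counts as scaling ended 36. All 3 comparisons with unstimulated share the unstimulated libraries, and all comparisons with LPS share the LPS libraries.

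The label of the cells was checked at the starts of marker genes. All 7 macrophage markers had a peak, with mean levels from 7.08 CPM at Cd68 to 39.3 CPM at Mertk. Among them is Csf1r, itself a member gene, at 35.3 CPM. The sum of the 7 ran from 99.6 to 153 CPM in unstimulated libraries and from 145 to 205 CPM in the others. No peak lay at the starts of Cd3e, Cd3g, Ly6g, Ngp, Col3a1 or Dcn. The highest markers of other cells were Zbtb46 (dendritic cell, 31.3 CPM), Elane (granulocyte, 27.5 CPM), Col1a1 (fibroblast, 14.5 CPM), Flt3 (progenitor, 10.7 CPM) and Ms4a1 (B cell, 5.19 CPM), and Cd2 (T cell) and the erythroid pair Gata1 and Klf1 stayed between 1.08 and 1.64 CPM. The sum of the 3 granulocyte markers with a peak was higher in both IL-10 groups, 46.4 to 53.5 CPM against 27.7 to 45.9 CPM in the other groups, and its part in the IL-10 results was not tested.

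Every member gene had an open region at or next to a start. By CPM per kb, which allows comparison between peaks, the promoter peak of Cebpb was the strongest at 60.9, followed by Cebpa at 52.4, Cebpd at 46.6, Maf at 44.6, the proximal Runx1 promoter at 26.7, Spi1 at 20.4 and Csf1r at 4.76. The Csf1r value is that of a 7405 base peak that ends 858 bases before the first annotated start. None of the 4 annotated Csf1r starts, the main Spi1 start, the upstream Spi1 starts and the distal Runx1 starts lay inside a peak, against 57.0% of 22367 coding genes whose start was covered. For 7.0% of those genes the start was uncovered and lay between 2 peaks within 2 kb. The Runx1 start at chr16:92697573 was also uncovered, 18 bases from the proximal promoter peak. The main Spi1 start lay between peaks that ended 410 bases before it and began 427 bases after it. The counts hold no value at those exact positions.

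Across conditions, 6 of the 7 promoter peaks were lowest in unstimulated cells, and Cebpa was lowest in LPS + IL-10 cells. The Cebpb promoter peak (chr2:167513877-167514700) was 26.6, 37.8 and 41.7 CPM in unstimulated libraries, 54.3, 51.0 and 49.6 CPM in LPS libraries, and 50.7, 60.8 and 59.1 CPM in IL-10 libraries. All treated libraries lay above the 3 unstimulated ones. The log2 fold change was 0.55 ± 0.14 (SE, FDR = 0.00138) for LPS, 0.59 ± 0.14 (FDR = 0.000763) for (+)-JQ1 and 0.68 ± 0.14 (FDR = 0.000303) for IL-10. Without unstimulated replicate 1 the LPS and (+)-JQ1 values dropped to 0.38 and 0.43 and were no longer called. The mean level of this peak was 50.1 CPM, and of all peaks above 50 CPM 89.8% were called higher with (+)-JQ1, with a median of 0.76.

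**Figure D1:**
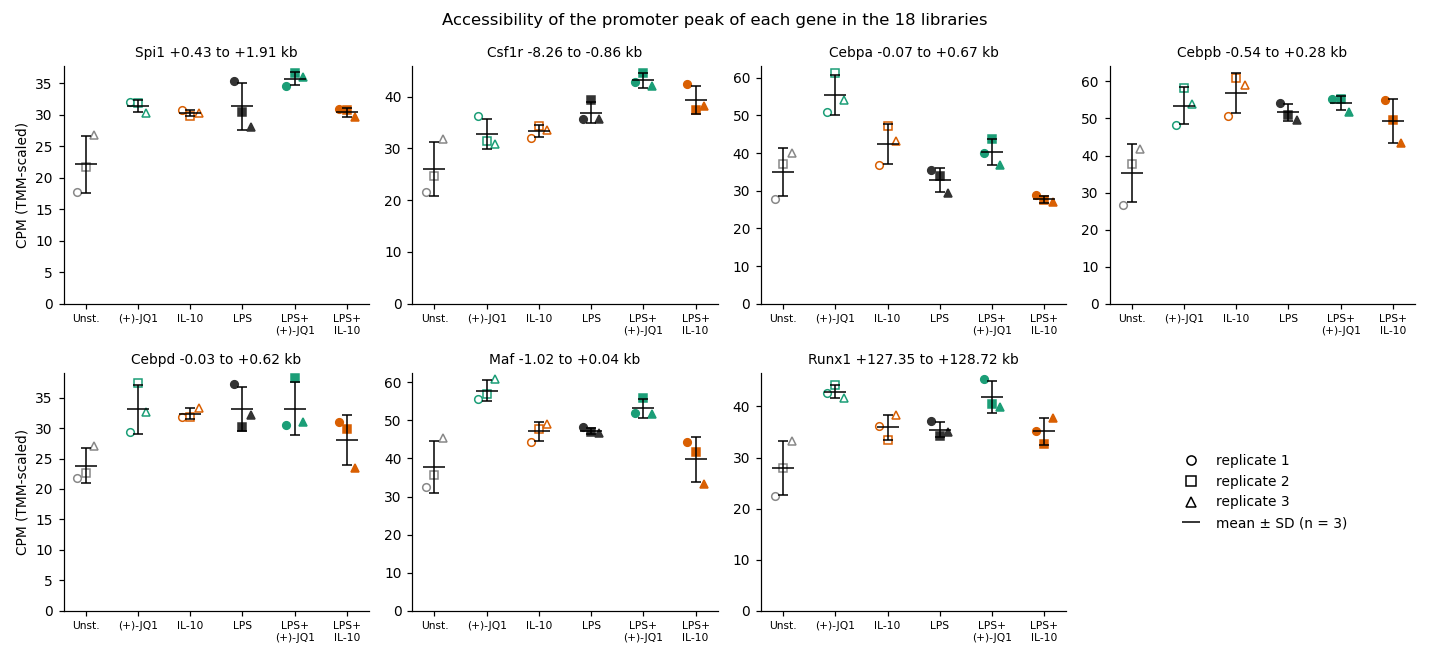
CPM (TMM-scaled, y axis from 0) of the promoter peak of each gene in the 6 groups (x axis). Symbols are the 3 replicates, open without LPS and filled with LPS, and bars give mean ± SD. The unstimulated group is lowest in all panels but that of Cebpa, and unstimulated replicate 1 is lowest within its group in all 7.

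The Maf promoter peak (chr8:118230956-118232013) rose from 37.8 ± 6.81 to 57.8 ± 2.79 CPM with (+)-JQ1 alone, a log2 fold change of 0.61 (FDR = 0.000362). The proximal Runx1 promoter peak (chr16:92697591-92698961) rose from 28.0 ± 5.35 to 42.9 ± 1.30 CPM (0.61, FDR = 0.000346). At Cebpa the start peak (chr7:35904240-35904983) was 27.9, 37.0 and 40.1 CPM in unstimulated and 51.0, 61.3 and 54.0 CPM in (+)-JQ1 libraries (0.66, FDR = 0.00012). The Spi1 promoter peak was also called with (+)-JQ1 alone, from 22.1 ± 4.57 to 31.4 ± 0.973 CPM, a call lost in 6 of 13 alternatives (0.23 to 0.69). The (+)-JQ1 calls at Cebpa, Cebpb, Maf and Runx1 ended with total counts as scaling (0.32 to 0.38) and without replicate 2 of every group (0.58 to 0.62, FDR = 0.0659 to 0.106). That at Runx1 also ended without replicate 1 of every group (0.5) and without unstimulated replicate 1 (0.48). None of the 7 was called with LPS + (+)-JQ1 or LPS + IL-10 against LPS. In the order of the Cebpa levels, (+)-JQ1 stood apart from IL-10 at 42.4 ± 5.25 CPM, whereas IL-10, LPS + (+)-JQ1 at 40.2 ± 3.42, unstimulated at 35.0 ± 6.32 and LPS at 32.9 ± 3.22 CPM each overlapped the next, and LPS + IL-10 at 27.8 ± 0.962 CPM lay below the LPS range. Cebpd was flatter, from 23.9 ± 2.87 CPM in unstimulated to 33.2 ± 4.29 CPM in LPS + (+)-JQ1 cells, and was called in none of the 5 comparisons between groups.

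LPS moved the loci in opposite directions. Of the 189 members, 26 were called higher and 44 lower with LPS against unstimulated, where 11.7% of all peaks were called higher and 10.2% lower, and the median log2 fold change was -0.25 against -0.03 over all peaks. Spi1 had 12 of 16 peaks higher and 0 lower, Cebpb 5 of 15 higher and 0 lower, and Cebpd 3 of 12 higher and 0 lower. Runx1 had 30 of 83 lower and 1 higher, Csf1r 8 of 25 lower and 3 higher, Cebpa 6 of 23 lower and 1 higher, and Maf 1 of 15 higher and 0 lower. With total counts as scaling the 26 higher calls became 9 and the 44 lower ones 64, and without unstimulated replicate 1 they became 15 and 35. Without replicate 1 of every group, 26 members were called lower, and without replicate 2, whose lane changed with LPS, 18 were higher and 37 lower.

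**Figure D2:**
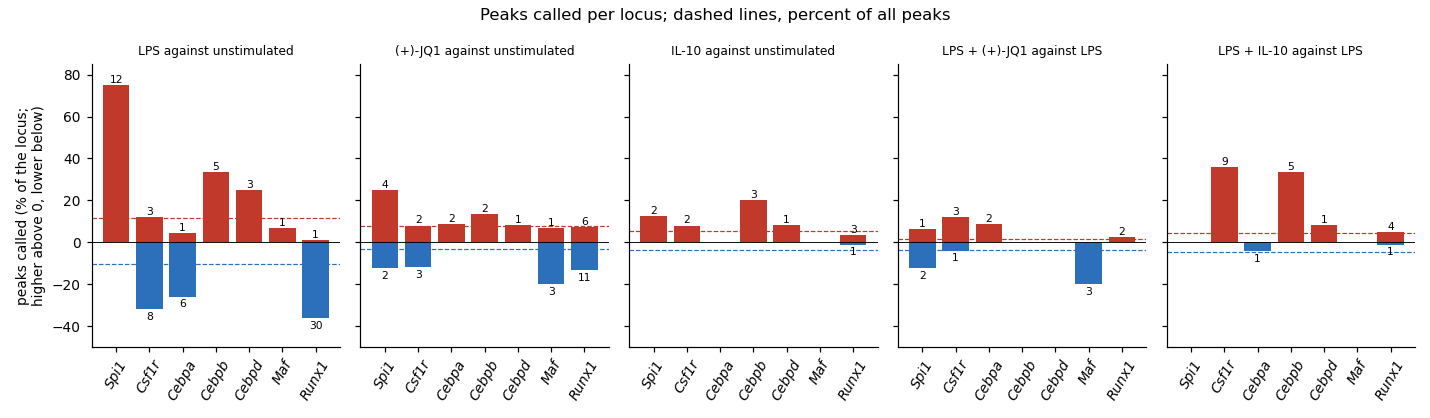
Percent of each locus's peaks called higher (above 0) or lower (below 0) in 5 comparisons (panels), with the number of peaks at each bar and dashed lines at the percent of all peaks called. Spi1 rises and Runx1 falls with LPS, and the IL-10 comparison within LPS has 9 higher peaks at Csf1r and 5 at Cebpb.

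At Spi1 the LPS rise was largest on the 3′ side of the locus. The peak with the largest change, Spi1 +24.64 to +30.04 kb (chr2:90960892-90966294), lies within Mybpc3, the neighbouring gene of a cardiac myosin-binding protein, and which gene it serves was not tested. It was 15.1, 21.7 and 21.9 CPM in unstimulated libraries and 47.0, 48.5 and 47.8 CPM in LPS libraries. The groups did not overlap, and the log2 fold change was 1.28 ± 0.14 (SE, FDR = 2.63e-13), with 1.06 to 1.37 under 13 alternatives that all called it. Its neighbour, Spi1 +22.28 to +24.58 kb, also in Mybpc3, rose from 16.4 ± 2.03 to 34.8 ± 1.51 CPM (1.08, FDR = 2.14e-10). In the gene body, Spi1 +8.79 to +14.80 kb rose by 0.92 and Spi1 +15.09 to +21.18 kb by 0.89 on the log2 scale. These 3 were picked after their values were seen. The peak at the main start rose by 0.50 (FDR = 0.00324), near the median of 0.38 of all peaks of 20 to 50 CPM. That call, at the edge of the fold threshold, was kept by 6 of 13 alternatives (0.28 to 0.74). Of the 16 Spi1 peaks, 5 were called higher with total counts as scaling and 8 without unstimulated replicate 1.

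The upstream side of Spi1 holds its best known element. The peaks on either side of the upstream starts leave these uncovered, and the later one begins 953 bases after the first upstream start. The stretch between them has no counts, and whether either peak holds the known element was not tested. The first, Spi1 -16.07 to -14.69 kb (chr2:90920186-90921564), ends 983 bases before the first upstream start, contains the PU.1 letters printed above and rose from 9.78 ± 0.963 to 14.7 ± 0.596 CPM with LPS (0.58, FDR = 0.000981). It was 14.2 ± 0.892 CPM with (+)-JQ1 and 15.3 ± 1.99 CPM with IL-10, each called against unstimulated (0.54 and 0.65). With total counts as scaling none of these 3 was called. The strongest Spi1 peak per kb away from starts, Spi1 -11.95 to -10.20 kb (chr2:90924302-90926054), within an intron of the upstream transcripts, carries the interferon element letters.

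**Figure D3:**
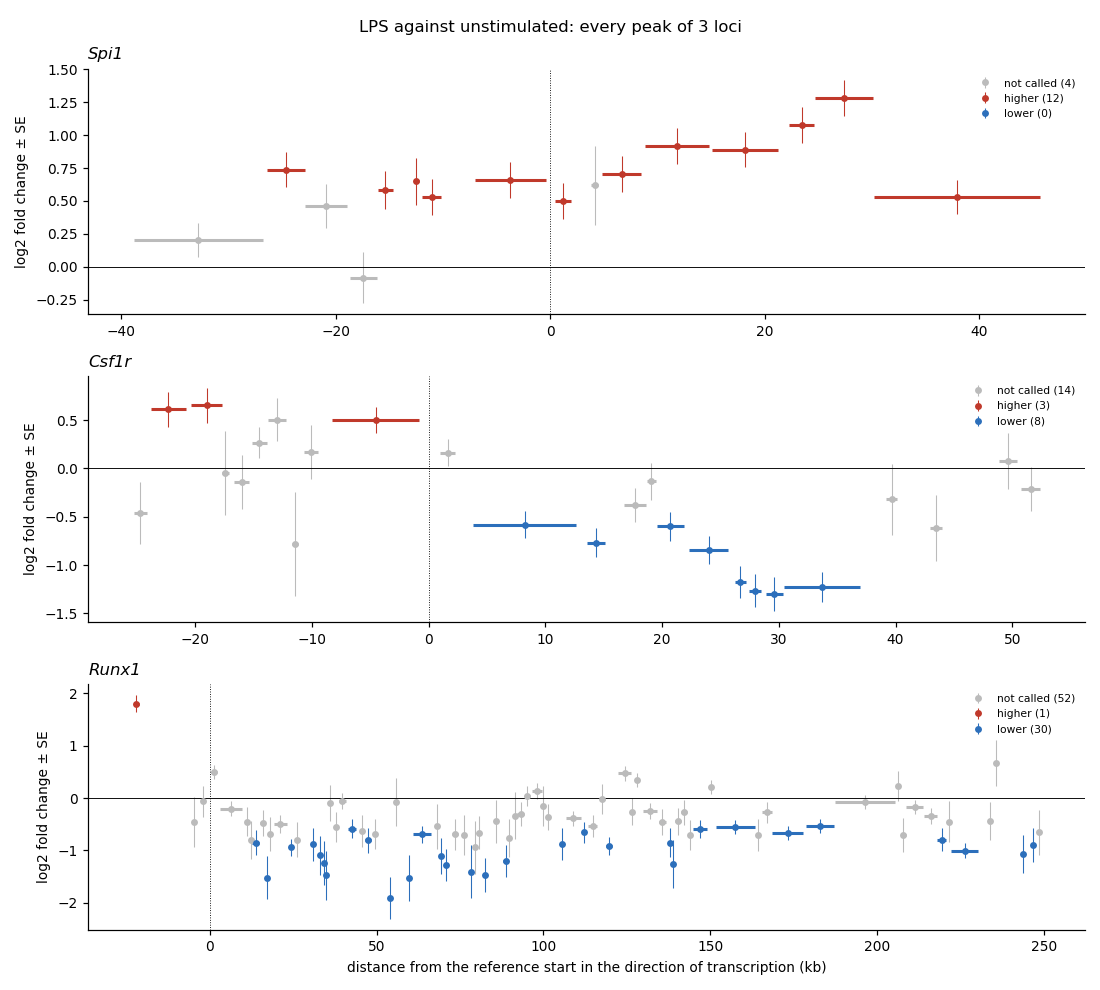
Log2 fold change of LPS against unstimulated (y axis, ± SE) for each peak of Spi1, Csf1r and Runx1 against distance from the reference start in kb (x axis), with horizontal bars for peak width and colours for the call. Spi1 has 12 higher peaks, Csf1r turns from higher upstream to lower downstream of its start, and Runx1 has 30 lower peaks and 1 higher peak at its upstream end.

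Csf1r split at its start. Of the 10 peaks upstream or at the start, 3 rose and 0 fell, and of the 15 in the gene body and downstream, 0 rose and 8 fell, with medians of 0.22 and -0.60. None of the upstream rises was called without replicate 2 or with total counts as scaling, whereas 8 or 9 peaks of the locus fell under each alternative. The peak that ends before the start, Csf1r -8.26 to -0.86 kb, rose from 26.0 ± 5.24 to 36.9 ± 2.05 CPM (0.50, FDR = 0.00289), a call at the edge of the fold threshold that 6 of 13 alternatives kept (0.28 to 0.70). It was lost, among others, without unstimulated replicate 1 (0.39). Downstream, Csf1r +28.86 to +30.35 kb (chr18:61294081-61295580) was 12.2, 16.5 and 22.2 CPM in unstimulated and 5.28, 8.44 and 7.11 CPM in LPS libraries. That peak had the largest fall of the locus, -1.30 ± 0.17 (SE, FDR = 1.43e-09). Csf1r +26.21 to +27.21 kb, in the 3′ exons, fell from 18.5 ± 3.75 to 8.23 ± 2.06 CPM (-1.18, FDR = 6.16e-09). Of the 8 falling peaks, 4 lie within Hmgxb3, the convergent neighbour, and 4 within the Csf1r body alone. In the second intron, Csf1r +0.94 to +2.29 kb was 17.2 ± 2.11 CPM with LPS and 15.4 ± 2.85 CPM without (0.16, FDR = 0.433), while the long peak that begins in the same intron, Csf1r +3.83 to +12.63 kb, fell by 0.58 on the log2 scale (FDR = 0.000844).

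Runx1 was the locus with the most falls. Between the distal and the proximal start 20 of 52 peaks fell and 0 rose, and from the proximal start to the downstream end 10 of 28 fell and 0 rose. Many were weak. Of the 49 Runx1 peaks under 50 mean scaled counts, 17 fell, against 10.8% lower calls over all such peaks, and of the 34 stronger ones 13 fell, against 9.26%. The largest fall among the stronger peaks was Runx1 +222.33 to +230.20 kb (chr16:92596113-92603983), which spans the last exon and the gene end. It was 26.2, 25.4 and 30.8 CPM in unstimulated and 13.3, 15.0 and 12.8 CPM in LPS libraries (-1.003 ± 0.14 SE, FDR = 3.94e-09). Runx1 +23.95 to +24.90 kb (chr16:92801407-92802361), at the position where an intronic hematopoietic enhancer downstream of the distal start is known, fell from 10.9, 14.7 and 18.3 to 5.88, 9.29 and 7.88 CPM (-0.94 ± 0.16 SE, FDR = 6.40e-07). Its neighbour, Runx1 +19.14 to +23.12 kb, was 7.32 ± 0.0581 CPM without and 5.18 ± 0.191 CPM with LPS and did not pass the fold threshold (-0.50, FDR = 0.0254). The count of falling Runx1 peaks was 12 without replicate 1 of every group, 20 without unstimulated replicate 1 and 49 with total counts as scaling.

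The exception at Runx1 had the largest rise of all 7 loci. Runx1 -22.82 to -21.13 kb lies upstream of the distal start and was 5.02, 3.90 and 6.19 CPM in unstimulated and 18.8, 18.3 and 15.5 CPM in LPS libraries. Every LPS library was above every unstimulated one, and the log2 fold change was 1.80 ± 0.16 (SE, FDR = 2.94e-17), with 1.58 to 2.06 over 13 alternatives. It was also higher with (+)-JQ1 alone, at 9.08 ± 0.683 CPM (0.85, FDR = 7.53e-05), and with IL-10 alone, at 8.50 ± 0.411 CPM (0.75, FDR = 0.00116). Without replicate 2 of every group neither call was kept (0.69, FDR = 0.0643 for (+)-JQ1 and 0.59, FDR = 0.152 for IL-10). Within LPS the peak was 16.6 ± 2.58 CPM with (+)-JQ1, not called (-0.09, FDR = 0.824), and 12.7 ± 2.07 CPM with IL-10 (-0.47, FDR = 0.0221), under the fold threshold although the groups did not overlap.

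**Figure D4:**
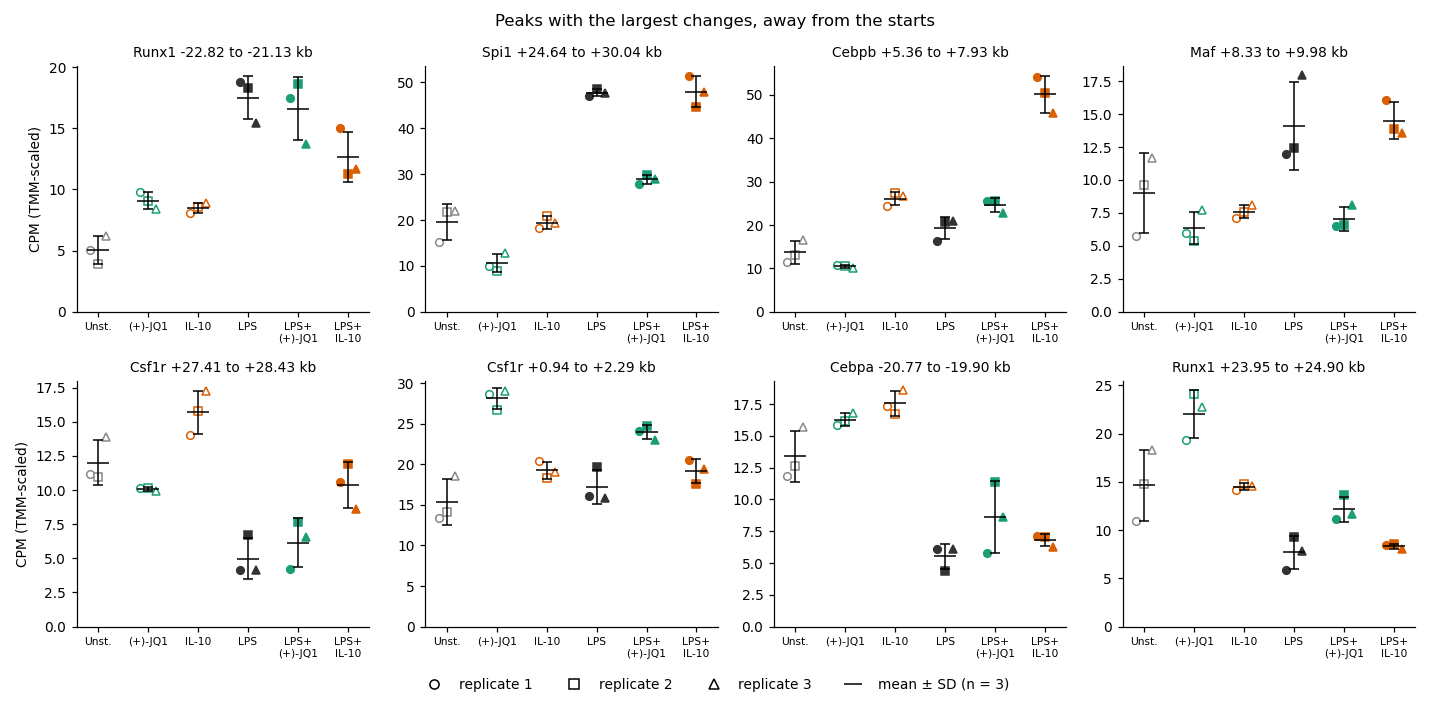
CPM (TMM-scaled, y axis from 0) in the 18 libraries for 8 peaks away from the starts, by group (x axis), with the 3 replicates as symbols and mean ± SD as bars. Runx1 -22.82 to -21.13 kb rises to 17.5 CPM with LPS, Spi1 +24.64 to +30.04 kb is lower with (+)-JQ1 in both states, and Cebpb +5.36 to +7.93 kb reaches 50.1 CPM with LPS + IL-10.

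The C/EBP genes moved apart. At Cebpa the falling peaks were distal, with Cebpa -20.77 to -19.90 kb (chr7:35883546-35884413), the peak with a pair of Runx matches, at 11.9, 12.6 and 15.7 CPM in unstimulated and 6.11, 4.40 and 6.09 CPM in LPS libraries (-1.28 ± 0.16 SE, FDR = 2.37e-10). The Cebpa start peak did not pass (-0.09, FDR = 0.674), and the strongest peak per kb away from the start, Cebpa +7.58 to +8.65 kb, rose by 0.54 (FDR = 0.0032), a call lost without unstimulated replicate 1 (0.36, FDR = 0.0658). At Cebpb the largest rise was Cebpb +8.85 to +9.90 kb (chr2:167523268-167524311), from 10.6, 10.8 and 11.7 to 21.2, 21.6 and 22.3 CPM (0.97 ± 0.14 SE, FDR = 1.19e-08). At Cebpd it was the downstream peak Cebpd +2.85 to +3.44 kb (chr16:15890234-15890815), from 10.8 ± 2.31 to 18.1 ± 0.663 CPM (0.74, FDR = 3.35e-05). They lie within the neighbouring genes A530013C23Rik and 2310008H04Rik. Of the 5 Cebpb rises, 2 were called with total counts as scaling and 2 without unstimulated replicate 1. At Maf the one called peak, Maf +8.33 to +9.98 kb (chr8:118221015-118222664) in the first intron, was 5.76, 9.62 and 11.7 CPM in unstimulated and 12.0, 12.4 and 17.98 CPM in LPS libraries (0.63, FDR = 0.00183), and the call was lost without unstimulated replicate 1 (0.40, FDR = 0.0683).

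The level of a peak went with the LPS value in all peaks, and the loci can be read against it. Members between 20 and 50 CPM had a median of 0.48 where all such peaks had 0.38, and members between 1 and 2 CPM had -0.62 where all such peaks had -0.15. Runx1 has a median level of 1.85 CPM and Spi1 one of 23.1 CPM. The larger changes named above, such as 1.28 at Spi1 and -1.30 at Csf1r, lay outside the quartiles of all peaks of their level. These quartiles ran from 0.20 to 0.53 between 20 and 50 CPM and from -0.07 to 0.52 between 10 and 20 CPM. Such peaks were picked as the largest called changes of their loci, so lying outside follows from the choice and tests nothing.

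**Figure D5:**
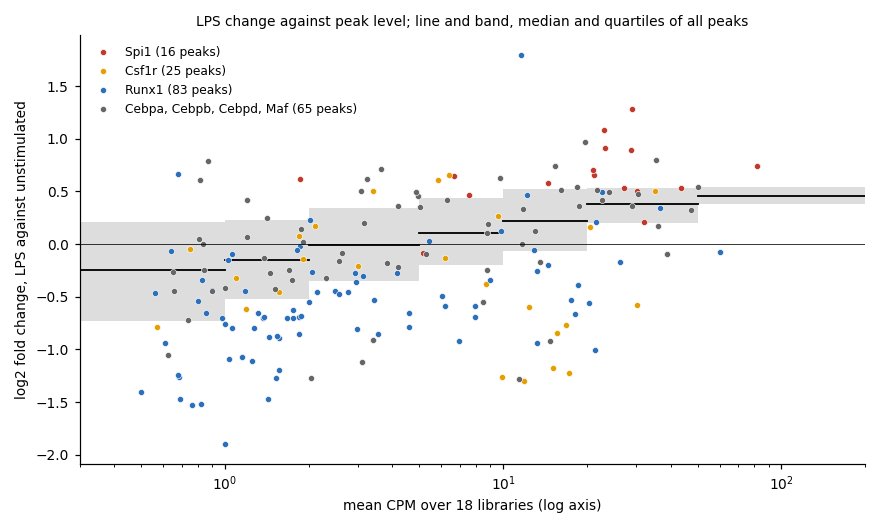
Log2 fold change of LPS against unstimulated (y axis) for the 189 members against mean CPM over 18 libraries (log x axis), coloured by locus. Black lines and grey bands are the median and quartiles of all 194230 tested peaks by level, rising from -0.25 under 1 CPM to 0.46 above 50 CPM, with Spi1 mostly at the right and Runx1 mostly at the left.

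(+)-JQ1 alone changed 37 members in resting cells, 18 higher and 19 lower, where 7.85% of all peaks were called higher and 3.15% lower. The median was -0.15 at the members and -0.09 over all peaks. Of the 11 peaks at a start of a member gene, 6 rose and 0 fell. Over all promoter peaks 22.9% were called higher and 2.15% lower, and of all peaks of 20 to 50 CPM 65.7% were called higher. The largest rise with at least 50 scaled counts was at Spi1 -11.95 to -10.20 kb, which was 14.9, 17.4 and 20.4 CPM in unstimulated and 33.2, 36.6 and 33.8 CPM in (+)-JQ1 libraries. The ranges were well separated (0.97 ± 0.14 SE, FDR = 1.26e-07), and 13 of 13 alternatives called it. The same holds for the second intron of Csf1r, where Csf1r +0.94 to +2.29 kb (chr18:61266163-61267519) went from 13.4, 14.1 and 18.6 to 28.8, 26.7 and 29.0 CPM (0.87 ± 0.14 SE, FDR = 1.27e-06). These exceed the median of 0.60 of all peaks of 20 to 50 CPM, while the promoter rises at Cebpa, Maf and Runx1, 0.61 to 0.66, were close to it and the 0.59 at Cebpb was below the median of 0.76 above 50 CPM. With total counts as scaling the 18 higher calls became 3 and the 19 lower ones 52.

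The peaks that fell with (+)-JQ1 alone included the LPS-responsive end of Spi1. Spi1 +24.64 to +30.04 kb went from 15.1, 21.7 and 21.9 to 10.1, 8.83 and 12.7 CPM (-0.89 ± 0.15 SE, FDR = 3.12e-06), and Spi1 +22.28 to +24.58 kb from 16.4 ± 2.03 to 10.6 ± 2.05 CPM (-0.63, FDR = 0.000845). At Maf 3 of 15 peaks fell, among them Maf +23.76 to +26.50 kb, which spans the gene end, from 5.37 ± 0.071 to 3.17 ± 0.516 CPM (-0.76, FDR = 0.00471), a call lost without replicate 2 (FDR = 0.0814) or 3 (FDR = 0.0976), and Maf +10.05 to +18.71 kb from 21.1 ± 2.78 to 13.6 ± 2.40 CPM (-0.65, FDR = 0.000604). The second of these Maf peaks, like Spi1 +22.28 to +24.58 kb, was picked after its values were seen. At Csf1r the downstream peak Csf1r +30.43 to +36.96 kb fell from 24.9 ± 4.78 to 14.4 ± 2.49 CPM (-0.79, FDR = 3.68e-05). Of the 11 falling Runx1 peaks, 10 were under 50 scaled counts, and 1 was called without replicate 2 of every group.

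With LPS present, (+)-JQ1 called 8 members higher and 6 lower against LPS, where 1.74% of all peaks were higher and 3.49% lower, and the median was 0.07 against 0.00. Maf was the locus with the most falls, 3 of 15. Maf +8.33 to +9.98 kb, with the kappaB letters, was 12.0, 12.4 and 17.98 CPM with LPS and 6.52, 6.55 and 8.07 CPM with LPS + (+)-JQ1, a log2 fold change of -0.98 ± 0.17 (SE, FDR = 6.01e-06) that 13 of 13 alternatives called. Maf +10.05 to +18.71 kb fell from 28.4 ± 2.12 to 16.0 ± 2.52 CPM (-0.81, FDR = 1.56e-05) and Maf +26.54 to +33.30 kb from 12.7 ± 1.17 to 8.82 ± 2.17 CPM (-0.52, FDR = 0.0228), both picked after their values were seen. At Spi1 the pair of peaks in Mybpc3 fell, +24.64 to +30.04 kb from 47.0, 48.5 and 47.8 to 27.9, 29.9 and 28.9 CPM (-0.73 ± 0.14 SE, FDR = 5.24e-05) and +22.28 to +24.58 kb from 34.8 ± 1.51 to 21.1 ± 1.74 CPM (-0.73, FDR = 5.33e-05), while the other LPS-raised Spi1 peaks were not called lower. The sixth fall was Csf1r -20.36 to -17.72 kb, from 7.56 ± 0.626 to 4.98 ± 0.785 CPM (-0.60, FDR = 0.0278). That call was lost without replicate 1 (-0.51, FDR = 0.163), 2 (FDR = 0.106) or 3 (FDR = 0.119) and by DESeq2 (FDR = 0.0516).

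The 8 rises with LPS + (+)-JQ1 lay at Csf1r (3), Cebpa (2), Runx1 (2) and Spi1 (1). Runx1 +23.95 to +24.90 kb went from 5.88, 9.29 and 7.88 to 11.1, 13.6 and 11.7 CPM, without overlap (0.67 ± 0.16 SE, FDR = 0.00226), and was likewise higher with (+)-JQ1 alone, at 22.1 ± 2.46 against 14.7 ± 3.70 CPM (0.58, FDR = 0.00201). The call with (+)-JQ1 alone was lost in 4 of 13 alternatives, among them without unstimulated replicate 1 (0.42, FDR = 0.0592), without replicate 2 (0.52, FDR = 0.137) and with total counts as scaling (0.31), and all peaks of 10 to 20 CPM had a median of 0.31. At 14.5 ± 0.348 CPM with IL-10 alone that peak did not pass (-0.02, FDR = 0.954). Cebpa -20.77 to -19.90 kb went from 5.53 ± 0.985 to 8.59 ± 2.83 CPM with overlapping ranges (0.66, FDR = 0.00607), a call lost without replicate 2 (0.27, FDR = 0.678). Cebpa -12.79 to -12.11 kb went from 2.05 ± 0.582 to 3.61 ± 0.711 CPM (0.81, FDR = 0.0221) and was lost in the same way (0.42, FDR = 0.592). The 3 at Csf1r lay in the gene body, with Csf1r +22.31 to +25.68 kb from 9.12 ± 0.93 to 13.4 ± 2.18 CPM (0.57, FDR = 0.00765) as the largest, picked after its values were seen. The count of 8 was 1 without replicate 2 and 2 without replicate 3 of every group.

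IL-10 alone called 11 members higher and 1 lower, where 5.16% of all peaks were higher and 3.5% lower, with a median of 0.05 against -0.05. Cebpb had 3 of 15 and Runx1 3 of 83 higher. The peak Cebpb +5.36 to +7.93 kb (chr2:167519776-167522342) was 11.4, 13.1 and 16.6 CPM in unstimulated and 24.3, 27.3 and 26.6 CPM in IL-10 libraries, a rise without overlap (0.93 ± 0.14 SE, FDR = 1.28e-06). The STAT letters printed above lie outside the middle 300 bases of this peak, and 31.1% of all whole peaks hold such letters. Cebpb +8.85 to +9.90 kb went from 11.0 ± 0.575 to 20.4 ± 1.14 CPM (0.89, FDR = 2.93e-06). At Csf1r, Csf1r +16.72 to +18.65 kb in the gene body went from 6.95 ± 2.14 to 12.8 ± 1.16 CPM (0.87, FDR = 0.000122). These 3 were called under 13 of 13 alternatives, but the count of 11 was 4 with total counts as scaling, 7 without unstimulated replicate 1 and 4 without replicate 2. Spi1 -16.07 to -14.69 kb had the largest IL-10 rise of its locus (0.65, FDR = 0.00108), and no peak of Cebpa or Maf was called.

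IL-10 before LPS raised 19 members and lowered 2 against LPS alone, where 4.26% of all peaks were higher and 4.51% lower, and the median was 0.20 against -0.01. Csf1r supplied 9 of the 19, all in the gene body and downstream, and 0 upstream. Of these 9, 4 lie within the neighbouring gene Hmgxb3, and which gene they serve was not tested. Csf1r +27.41 to +28.43 kb (chr18:61292634-61293653) was 4.14, 6.69 and 4.12 CPM with LPS and 10.6, 11.9 and 8.59 CPM with LPS + IL-10, against 11.2, 10.9 and 13.9 CPM in unstimulated libraries. The groups with and without IL-10 did not overlap, and the log2 fold change was 1.05 ± 0.17 (SE, FDR = 1.75e-06) after -1.27 (FDR = 1.36e-09) with LPS. Csf1r +26.21 to +27.21 kb rose from 8.23 ± 2.06 to 15.4 ± 4.41 CPM (0.90, FDR = 2.40e-05), and the long intragenic peak Csf1r +3.83 to +12.63 kb from 21.6 ± 2.83 to 32.7 ± 2.68 CPM (0.60, FDR = 0.00146). Between 6 and 9 Csf1r peaks were called higher under each alternative. The second intron peak Csf1r +0.94 to +2.29 kb was not called (0.16, FDR = 0.539).

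Cebpb had the largest IL-10 value with LPS among members with at least 50 scaled counts. All 15 peaks of this locus overlap the body of another annotated gene, and which gene they serve was not tested. Cebpb +5.36 to +7.93 kb went from 16.3, 20.7 and 21.0 to 54.3, 50.4 and 45.8 CPM, a log2 fold change of 1.38 ± 0.14 (SE, FDR = 4.82e-14) and 1.21 to 1.5 over 13 alternatives. It is the same peak that led with IL-10 alone, and its unstimulated and LPS ranges overlapped. Cebpb +10.11 to +22.43 kb went from 33.5 ± 1.05 to 53.3 ± 2.64 CPM (0.67, FDR = 5.35e-05) and was picked after its values were seen, whereas the Cebpb start peak did not pass (-0.07, FDR = 0.827). At Runx1 4 peaks rose and 1 fell, with Runx1 +222.33 to +230.20 kb from 13.7 ± 1.13 to 24.7 ± 2.92 CPM (0.85 ± 0.14 SE, FDR = 1.93e-06) and Runx1 +106.65 to +111.33 kb from 13.1 ± 2.64 to 21.4 ± 2.66 CPM (0.70, FDR = 0.000148), the latter picked after its values were seen. Cebpd +4.09 to +7.11 kb rose by 0.62 (FDR = 0.0161), Cebpa +18.06 to +20.14 kb fell by 0.67 on the log2 scale (FDR = 0.0187), and no Spi1 or Maf peak was called. The Cebpd call was lost without any 1 of the 3 replicates (FDR = 0.0645 to 0.122), and the Cebpa call without replicate 1 (-0.55, FDR = 0.154) or 2 (FDR = 0.116). At the LPS-raised end of Spi1 the difference was 0.01 (FDR = 0.986), with 48.0 ± 3.40 CPM beside 47.8 ± 0.772 CPM for LPS alone.

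Whether a treatment acted differently with and without LPS was tested by the interaction, the log2 difference of treatment with LPS less that without. For (+)-JQ1, 3 members were called positive and 2 negative, where 0.649% of all peaks were positive and 3.19% negative. For IL-10, 3 were positive and 9 negative, where 2.01% and 5.9% of all peaks were. Strong peaks leaned negative everywhere, with medians of -0.50 and -0.54 among all peaks of 20 to 50 CPM, and the unstimulated libraries enter both interactions. Among those called, the most positive (+)-JQ1 interaction was at Csf1r +30.43 to +36.96 kb (1.19, FDR = 0.000422), where (+)-JQ1 gave -0.79 without LPS and 0.40 with it. Runx1 -22.82 to -21.13 kb was the most negative in both, at -0.94 (FDR = 0.00849) and -1.22 (FDR = 7.15e-05). Without replicate 2 of every group 0 members were called in either interaction. The counts with total counts as scaling were 14 and 23 positive and 1 and 2 negative.

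The promoter peaks followed many others. Among 22715 promoter peaks outside the loci with at least 50 mean scaled counts, the peak whose log2 CPM correlated best over the 18 libraries was at AI662270 for Spi1 (r = 0.959), Ccl9 for Csf1r (0.966), Cxcr4 for Cebpa (0.953), Cfl1 for Cebpb (0.962), Ndufab1 for Cebpd (0.965), Rsu1 and Gm13270 for Maf (0.986) and Med27 for Runx1 (0.973). All points share libraries and the low unstimulated levels, so these are descriptions without a test.

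A list of 22 other myeloid regulator loci, with 628 peaks, gave the surroundings. With LPS 151 of 628 were higher and 50 lower, or 24% and 7.96% against 11.7% and 10.2% of all peaks, with a median of 0.23 against -0.25 at the 7 loci. Ikzf1, the Ikaros gene, had 28 of 36 higher and Tcfec, an MiT family factor, 19 of 43, while Fli1, an ETS factor, had 23 of 58 lower. (+)-JQ1 alone gave 58 higher and 32 lower, or 9.24% and 5.1% against 7.85% and 3.15% of all peaks, and with LPS 19 and 81, or 3.03% and 12.9% against 1.74% and 3.49%. IL-10 alone gave 45 and 5, or 7.17% and 0.796% against 5.16% and 3.5%, and with LPS 56 and 46, or 8.92% and 7.32% against 4.26% and 4.51%. Ikzf1 had 19 of its 36 peaks lower with LPS + (+)-JQ1 against LPS, and Mitf 21 of 76.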

How the data were processed

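ATAC-seq was performed on 18 BMDM libraries in 6 groups of 3. The authors aligned reads to mm9 with Bowtie2 within the PEPATAC pipeline, called peaks per library with MACS2, classed them as promoter or distal with ChIPseeker, and deposited raw counts per peak over the union of peaks. How the union was merged and how Tn5 cut sites were shifted is not given in the sources used here. The deposited tables hold 6 further columns whose names match no sample, and these were not used. Peaks that overlapped the 7 gene bodies extended by 25 kb were taken as members. The members and lists were chosen with earlier results of these data known.

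The main test was edgeR's quasi-likelihood test (version 4.0.16, R 4.3.3) after filterByExpr and TMM, with all 6 groups in the model and FDR over all 194230 peaks, in place of the DESeq2 test used by the authors, which was run as an alternative (DESeq2 1.42.0). On simulated counts for LPS against unstimulated, 200 peaks were given a change of 1.5 on the log2 scale. Of these 200, 159 were recovered, with 9 false calls among 193497 peaks. Recovery of smaller changes, such as those near the fold threshold, was not tested. The part of the low unstimulated levels in the calls on the measured counts was not tested either. Depth ran from 12020526 to 25908198 counts per library, and PCR copies are not independent molecules.

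Peaks were named by rule: those at a start, the strongest other peak per kb, the largest called change per locus and comparison with at least 50 mean scaled counts and one direction in all pairs, known elements, and peaks called in an interaction. Bone marrow came from 3 mice, and no source used here ties a replicate number to a mouse. The replicate block, lane as covariate, other scalings, filters and thresholds, left-out replicates and other windows were tried as alternatives. Leaving out unstimulated replicate 1 was added after the data were seen. Values of some listed genes and 1 sequence are not reported here.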

Additional observations from a re-analysis of the deposited data

Results flagged for a closer look

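The interaction of a treatment with LPS was called at 14 peaks, in 17 tests by edgeR's quasi-likelihood test. None of the 17 was called without replicate 2 of every group, and the one at Maf -1.02 to +0.04 kb kept its call in 3 of 12 alternatives. The values are log2 differences of the treatment effect with LPS less that without. For (+)-JQ1 they were -0.64 at Spi1 -26.38 to -22.91 kb (FDR = 0.0364), the start of Slc39a13, 0.96 at Spi1 -18.71 to -16.14 kb (FDR = 0.0259), 1.19 at Csf1r +30.43 to +36.96 kb (FDR = 0.000422), 0.74 at Cebpb +5.36 to +7.93 kb (FDR = 0.0214) and -0.94 at Runx1 -22.82 to -21.13 kb (FDR = 0.00849).

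For IL-10 the positive values were 0.80 at Csf1r +28.86 to +30.35 kb (FDR = 0.0204), 0.86 at Csf1r +30.43 to +36.96 kb (FDR = 0.00354) and 0.71 at Runx1 +222.33 to +230.20 kb (FDR = 0.00939). The negative values were -0.76 at Spi1 -26.38 to -22.91 kb (FDR = 0.00413), -0.75 at Cebpb -0.54 to +0.28 kb (FDR = 0.00567), -0.72 at Cebpb +8.85 to +9.90 kb (FDR = 0.00836), -0.64 at Cebpd -24.74 to -23.80 kb (FDR = 0.0301), the start of Mzt2, -0.68 at Cebpd -0.03 to +0.62 kb (FDR = 0.014), -0.64 at Cebpd +2.85 to +3.44 kb (FDR = 0.0299), -0.56 at Maf -1.02 to +0.04 kb (FDR = 0.0459), -0.71 at Runx1 +149.72 to +150.85 kb (FDR = 0.0104) and -1.22 at Runx1 -22.82 to -21.13 kb (FDR = 7.15e-05). Of all peaks of 20 to 50 CPM, 46.1% were called negative for IL-10 and 28.5% for (+)-JQ1, and the part of the low unstimulated levels in these values was not tested.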

How the results depend on the processing

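Of 88 called values at 39 named peaks, 27 were called under every alternative, 61 were lost under at least 1 and 0 reversed, and leaving out replicate 2 lost 53. Counts of member calls moved as follows. With total counts as scaling, higher calls were 9 for LPS, 3 for (+)-JQ1 and 4 for IL-10 against unstimulated, lower calls were 52 for (+)-JQ1 and 3 for IL-10, positive interactions were 14 for (+)-JQ1 and 23 for IL-10, and negative ones were 1 and 2. With at least 10 counts in every library, higher calls were 17, 11 and 7 for LPS, (+)-JQ1 and IL-10, lower calls for LPS + IL-10 were 1, and positive interactions were 7 and 9. Without unstimulated replicate 1, higher calls were 15, 10 and 7, lower calls for IL-10 were 0, the (+)-JQ1 interaction had 1 negative and the IL-10 interaction 5 positive. By DESeq2, lower calls were 12 for (+)-JQ1 and 0 for IL-10, and negative (+)-JQ1 interactions were 7. At an FDR under 0.01, lower calls were 7 for (+)-JQ1, 0 for IL-10 and 0 for LPS + IL-10, higher calls for LPS + (+)-JQ1 were 3, the (+)-JQ1 interaction had 1 positive and 1 negative, and the IL-10 interaction 4 negative. With only the compared groups, lower calls for LPS + IL-10 were 1. The cause was not tested.

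Leaving out each replicate of every group, or unstimulated replicate 1 alone, gave 15 to 32 higher and 26 to 38 lower calls for LPS, 3 to 21 and 3 to 13 for (+)-JQ1, 4 to 18 and 0 to 1 for IL-10, 1 to 8 and 4 to 6 for LPS + (+)-JQ1, and 11 to 19 and 0 to 2 for LPS + IL-10. The interactions gave 0 to 3 positive and 0 to 6 negative for (+)-JQ1, and 0 to 5 and 0 to 10 for IL-10. With the replicate block, which uses the shared number alone, negative (+)-JQ1 interactions were 1, LPS gave 26 higher and 46 lower calls, and 3 of the 88 named values were lost. Deviations from the group means correlated at a mean of 0.00573 in 45 same-numbered pairs, 0.0644 at most, and -0.00286 in 90 others, and 9 of 18 libraries correlated best with one of their own number. Peaks under 50 scaled counts carry a larger relative counting error than stronger ones.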
